A study of Mus musculus with 13 samples.

Results

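The 10 genes described here mark the trophectoderm, the outer epithelium of the mouse blastocyst, or regulate it. They are the keratins Krt18 and Krt19, the claudins Cldn4 and Cldn6, the transcription factors Tead4, Gata2, Ets2 and Ascl2, the receptor Fgfr2 and the galectin Lgals3. Each was found as a probe whose annotation gives exactly 1 gene symbol, and each had 1 such probe, so they stand for 10 of 9669 genes named in this way. Another probe names Gata2 together with other genes and was not used. The genes were compared between RNA of mouse NT1 and TBV sources on 13 two-colour arrays. The series title places the Sall4 -/- genotype beside NT1, and Sall4 encodes a zinc finger factor of pluripotent cells. Neither the cell type nor the age, treatment or number of clones of either source is given in the labels, although an embryonic stem cell line called TBV2 exists.

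The trophectoderm is the first epithelium of the embryo and forms the placenta. Its cells assemble simple-epithelial keratin filaments and seal the blastocyst cavity with tight junctions. TEAD4, acting with YAP in the Hippo pathway, switches on the trophectoderm programme in outside cells. Embryonic stem cells derive from the inner cell mass, where Oct4 holds this programme back, and FGF4 made there acts on FGFR2 of the trophectoderm.

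There were 4 combinations of RNA sources. NT1p14 was hybridised with TBVp13 on 5 arrays (the p14 pair) and NT1p12 met TBVp12 on 4 (the p12 pair). NT1 1 was hybridised with TBV2 on 2 arrays (the TBV2 pair) and NT1p12 met TBVp13 on 2 (the check pair). The p is taken to mean passage. NT1 was in the dye Cy5 on 7 arrays and TBV on 6. Every value below is a log2 ratio of NT1 over TBV, so that 1 would be a doubling in NT1. No source used here states the numerator, which was taken to be Cy5, so all signs could be the other way round. Arrays of 1 source pair are taken from their labels to repeat the same RNA and were averaged with both dye orientations weighted equally. This leaves 3 pairs that share no source label, called independent here (n = 3). They may be passages of 1 NT1 line and 1 TBV line, so n counts RNA preparations and may not replicate the genotype. The check pair shares both of its sources with other pairs and stays outside the mean. The table holds ratios only, so no level of any gene in NT1 or in TBV is known, and fewer cells of a type cannot be told apart from less RNA per cell.

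Between 14314 and 18381 probes had a value per array. Sall4 itself stood at -0.28 ± 0.33 (SD, n = 3) and below 0 on 10 of 13 arrays. It was not lower in every pair, with 0.066 in the p14 pair, -0.59 in the p12 pair, -0.32 in the TBV2 pair and -0.22 in the check pair. It did not pass over the 3 pairs (limma, adjusted p = 1.00), so it does not check the labels of the p14 pair. The Sall4 ratio was higher in the p14 pair than in the p12 pair by 0.66 (limma on arrays, adjusted p = 0.016). That comparison, described below, was passed by 21% of all probes tested. Whether the Sall4 probe lies in the deleted part is not known here. Across all probes, the p14 pair and the p12 pair correlated at -0.50. The other 2 correlations between independent pairs were 0.12 and -0.02. Values of arrays 4 and 5 of the p14 pair spread most over the probes (SD 1.00 and 1.14, against 0.34 to 0.81 on the other arrays).

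Krt18, Krt19 and Cldn4 were the 3 genes whose ratio was above 0 in all 3 independent pairs, and Lgals3 was the gene below 0 in all 3. Over all 15973 probes tested, 9.05% were above 0 in all 3 pairs and 5.33% below. None of the 10 genes passed the test of NT1 against TBV at an adjusted p under 0.05 (limma), against a background of 0% of the probes (0 of 15973, with 164 at an unadjusted p under 0.05). The median of the 10 genes was -0.03, against -0.00054 over all probes tested.

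**Figure D1:**
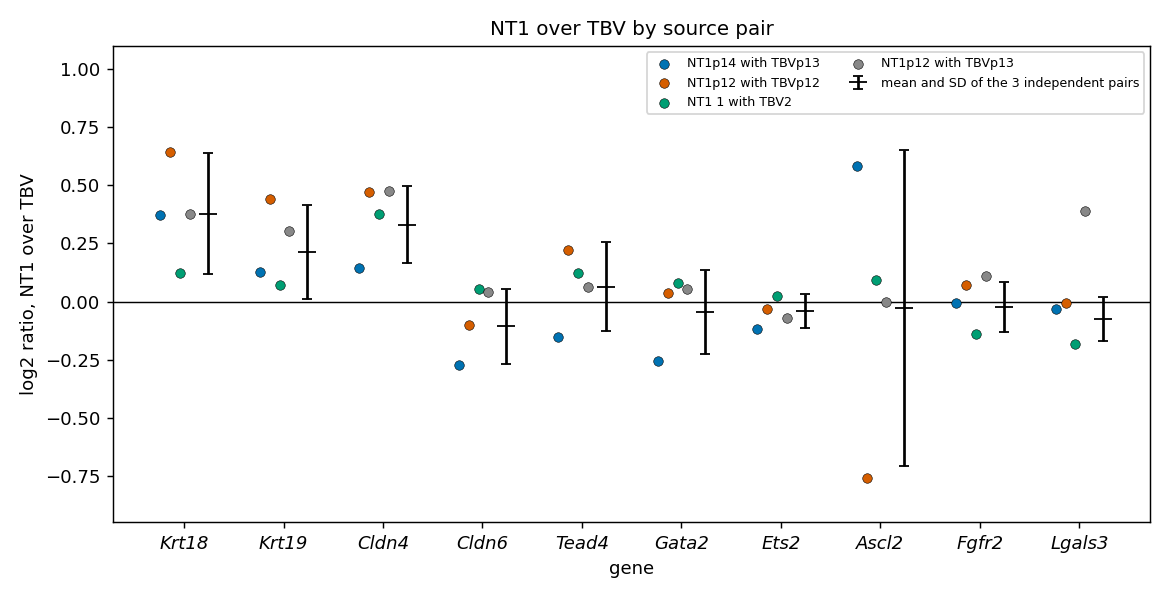
Log2 ratio of NT1 over TBV (vertical axis) for the 10 genes (horizontal axis). Coloured points are the 4 source pairs, and the black bar is the mean and SD of the 3 independent pairs. Krt18, Krt19 and Cldn4 lie above 0 in every pair, while the Ascl2 pairs lie at 0.58 and -0.76 on either side of 0.

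Krt18 encodes the type I keratin 18 of simple epithelia, at chr15:102028216-102032026 in GRCm38.p6. In the p12 pair its 4 arrays read 0.70, 0.90, 0.28 and 0.68. In the p14 pair the 5 arrays read 0.018, 0.41, 0.31, 0.67 and 0.44. In the TBV2 pair the arrays read 0.13 and 0.11, and in the check pair 0.53 and 0.22. Krt18 was therefore above 0 on 13 of 13 arrays and in both dye orientations, although array 1 of the p14 pair was close to 0. Of the 11078 probes with a value on every array, 3 (0.0271%) were above 0 on all 13: Krt18, Lcp1 and a probe without a symbol. Another 10 probes were below 0 on all 13. These other genes were named after their values were seen. Krt18 too was chosen with earlier results of these data known, and the 13 arrays repeat few RNA sources. Both counts of 1 sign on all 13 arrays leave out any probe with a ratio of 0 on an array. Whole numbers, 0 among them, made up 40.4% of values in the check pair and 23.7% in the p14 pair. Krt18 had 0 whole numbers, so the share of 0.0271% is not one among probes that kept their decimals. The mean of Krt18 was 0.38 ± 0.26 (SD, n = 3), with pair values of 0.37, 0.64 and 0.12. It did not pass (limma, adjusted p = 1.00), and its 95% interval ran from -0.0066 to 0.76. Of all probes tested, 2.76% had a mean as high or higher. With the 13 arrays taken as independent, which counts repeats of the same RNA, its adjusted p was 0.098 (limma).

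Krt19 encodes another type I keratin of simple epithelia, at chr11:100140810-100145926. Its arrays ranged from -0.24 to 0.87 with a median of 0.22, and 11 of 13 were above 0. The pair values were 0.13, 0.44 and 0.071, with 0.31 in the check pair. The mean was 0.21 ± 0.20 (SD, n = 3) and did not pass (limma, adjusted p = 1.00). All 7 arrays with NT1 in Cy5 were above 0, against 4 of the 6 with TBV in Cy5.

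Both keratins were highest in the p12 pair. If the sign of that pair were turned, their means would be -0.049 for Krt18 and -0.082 for Krt19. Without that pair they were 0.25 and 0.098. Krt8, the partner of keratin 18 in filaments, was not analysed here. Over the 13 arrays Krt18 and Krt19 correlated at r = 0.72, and at 0.76 once the dye term was removed. These arrays are repeats of few RNA sources, so this describes the arrays and is not a test.

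Cldn4 encodes claudin 4, a tight junction protein of epithelia, at chr5:134945123-134946934. Its arrays read 0.37, 0.22, -0.060, 0.83 and -0.31 in the p14 pair, where the values below 0 are those with TBV in Cy5. In the p12 pair they read 0.44, 0.85, 0.24 and 0.35. The TBV2 pair gave 0.68 and 0.073, and the check pair gave 0.40 and 0.55. The mean of 0.33 ± 0.17 (SD, n = 3), with pair values of 0.15, 0.47 and 0.38, did not pass (limma, adjusted p = 1.00). Its 95% interval ran from -0.0099 to 0.67, and 3.93% of all probes tested had a mean as high or higher. Cldn4 stayed above 0 with any single pair turned, but at only 0.018 with the p12 pair turned and at 0.080 with the TBV2 pair turned.

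Cldn6 encodes claudin 6, a tight junction protein of early embryonic epithelia, at chr17:23679348-23682446. It was measured on 11 arrays, since arrays 2 and 3 of the p14 pair had no value. These ranged from -0.53 to 0.28 with a median of -0.071. The pair values were -0.27, -0.099 and 0.052, and the mean was -0.11 ± 0.16 (SD, n = 3). The claudins thus had means on opposite sides of 0, and neither passed (limma, adjusted p = 1.00 for Cldn6). All 6 arrays with TBV in Cy5 were below 0 for Cldn6 when read as NT1 over TBV, or had no value.

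**Figure D2:**
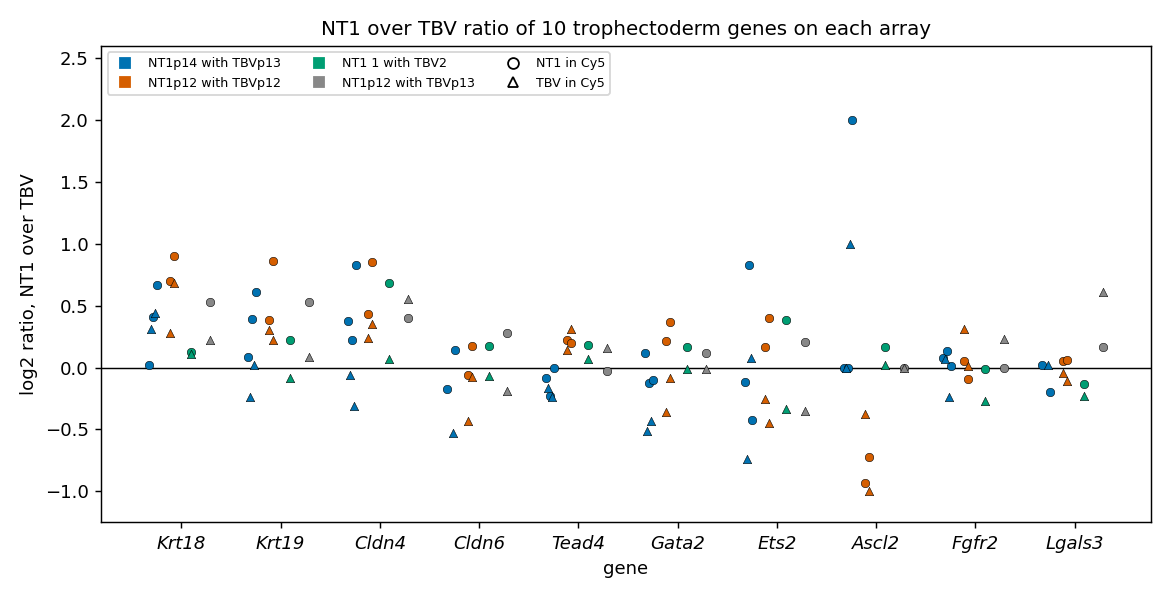
Log2 ratio of NT1 over TBV (vertical axis) of the 10 genes on each array. Colours mark the source pairs, circles arrays with NT1 in Cy5 and triangles arrays with TBV in Cy5. All 13 Krt18 points lie above 0, the lowest at 0.018, and the Tead4 and Ascl2 points of the p14 pair do not overlap those of the p12 pair. The Ascl2 points of the p14 pair are whole numbers, so a 0 may cover a range of small ratios.

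The promoters of Krt18 and Cldn4 are shown because these 2 genes had the highest means. That of Gata2 is shown as the only promoter among the genes with a TEAD core motif. Sequences are from RefSeq, build GRCm38.p6, and 8 of the 10 genes matched its promoter table, with Gata2 listed at 2 start sites. Krt19 and Tead4 are named only. Each run gives the 250 bases before the annotated start, 5′ to 3′ on the gene's strand. The windows are chr15:102027966-102028215 on the plus strand, chr5:134946935-134947184 on the minus strand and chr6:88198414-88198663 on the plus strand. Capitals mark matches on either strand to the TEAD core GGAATG, the GATA core AGATAA, the ETS core GGAAGT, the TATA box TATAAA, the GC box GGGCGG and the AP-1 motif TGANTCA.
Krt18: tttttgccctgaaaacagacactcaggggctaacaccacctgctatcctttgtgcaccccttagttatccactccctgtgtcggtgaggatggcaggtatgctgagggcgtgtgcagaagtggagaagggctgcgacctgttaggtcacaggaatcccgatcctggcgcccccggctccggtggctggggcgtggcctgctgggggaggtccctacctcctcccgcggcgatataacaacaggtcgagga
Cldn4: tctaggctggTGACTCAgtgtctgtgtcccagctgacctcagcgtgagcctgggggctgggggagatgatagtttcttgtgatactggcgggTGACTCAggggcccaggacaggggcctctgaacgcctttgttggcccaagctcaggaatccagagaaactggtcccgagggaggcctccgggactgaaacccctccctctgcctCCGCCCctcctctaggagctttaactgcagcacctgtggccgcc
Gata2: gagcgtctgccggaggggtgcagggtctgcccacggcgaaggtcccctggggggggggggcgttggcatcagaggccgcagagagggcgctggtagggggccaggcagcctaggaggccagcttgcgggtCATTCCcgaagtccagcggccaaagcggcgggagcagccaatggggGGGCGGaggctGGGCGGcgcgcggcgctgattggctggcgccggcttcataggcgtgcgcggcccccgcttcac
The Cldn4 window holds TGACTCA, an AP-1 match, at positions -240 and -158 from the start. AP-1 matches stand in 6.75% of all 32851 windows of this length, and Cldn4 was the only one of the 8 genes with one. The Krt18 window holds none of the 6 motifs. The TEAD core occurs in 12.6% of all windows, and here in 1 of the 8 genes, Gata2, reading CATTCC on the strand shown. GC boxes were found in 6 of the 8 genes (Ascl2, Cldn4, Cldn6, Ets2, Gata2 and Lgals3) and in 32.7% of all windows. Gata2 counts once here for its 2 windows. The windows of these 6 genes held from 53.6% to 74% G and C, against a median of 52.4% over all windows. The part of this base content in the GC box count was not tested. The GATA core (9.99% of all windows), the ETS core (19.7%) and the TATA box (12.4%) were found in 0 of the 8 genes. Such matches describe letters in these windows and say nothing of binding.

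Among the regulators, Tead4 and Ascl2 had ratios that differed between the p14 pair and the p12 pair, as did 21% of all probes, and these calls were lost in 11 (Tead4) and 6 (Ascl2) of 16 alternative settings. Gata2 and Ets2 read higher with NT1 in Cy5 than with TBV in Cy5. TEAD4 is the DNA-binding factor that starts the trophectoderm programme. The Tead4 gene lies at chr6:128227143-128300813. Its 5 arrays in the p14 pair read -0.083, -0.23, -0.16, -0.00044 and -0.24. Its 4 arrays in the p12 pair read 0.22, 0.20, 0.15 and 0.31. All values of the first pair were below 0 and all of the other above it. The TBV2 pair gave 0.18 and 0.069, and the check pair -0.030 and 0.16. Over the 3 pairs the mean was 0.064 ± 0.19 (SD, n = 3; limma, adjusted p = 1.00).

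ASCL2 is a basic helix-loop-helix factor that maintains trophoblast progenitors of the placenta, and its gene lies at chr7:142966822-142969264. In the p14 pair the arrays read 0, 0, 0, 2 and 1. In the p12 pair they read -0.93, -0.72, -0.38 and -1. The TBV2 pair gave 0.16 and 0.022, and the check pair gave 0 on both arrays. Of these 13 values 8 were whole numbers, read here as ratios that lost their decimals, so a 0 may cover a range of small ratios. With the 0 values taken as they stand, the first pair lay at or above 0 and the other below 0. The mean of -0.027 ± 0.68 (SD, n = 3) had the largest spread between pairs of the 10 genes and did not pass (limma, adjusted p = 1.00).

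GATA2 is a zinc finger factor of trophoblast giant cells and of blood progenitors. Gata2 ranged from -0.51 to 0.37 over the arrays with a median of -0.011. Its pair values were -0.25, 0.035 and 0.080 and its mean was -0.046 ± 0.18 (SD, n = 3). ETS2 is an ETS factor needed for the self-renewal of trophoblast stem cells. Ets2 ranged from -0.74 to 0.83 with a median of -0.11. In the p14 pair alone it read -0.11, 0.83, -0.74, -0.42 and 0.076, so that repeats of the same RNA held both the lowest and the highest value. Its mean was -0.041 ± 0.072 (SD, n = 3), and neither gene passed (limma, adjusted p = 1.00 for both).

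FGFR2 is the receptor through which FGF4 sustains trophoblast stem cells. Fgfr2 ranged from -0.27 to 0.31 over the arrays and had a mean of -0.024 ± 0.11 (SD, n = 3). Its 95% interval of -0.34 to 0.30 does not show that NT1 and TBV were alike. Lgals3 encodes galectin 3, a carbohydrate-binding protein made by trophectoderm and by macrophages. It had a value on 11 arrays, from -0.23 to 0.61. The pair values of -0.033, -0.0071 and -0.18 gave a mean of -0.074 ± 0.095 (SD, n = 3). The check pair lay on the other side, at 0.39, on arrays of 0.17 and 0.61. Neither gene passed (limma, adjusted p = 1.00 for both).

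The ratios of the p14 pair and the p12 pair were then compared on all 13 arrays, with a term for the dye. This asks whether these 2 pairs of RNA sources differ by more than repeat hybridisations do, and not whether passages differ. Tead4 was lower in the p14 pair by a difference of -0.36 (SE 0.12, limma, adjusted p = 0.047). Ascl2 was higher there by 1.35 (SE 0.39, limma, adjusted p = 0.037). These 2 of 10 genes stand against 21% of all 16837 probes tested, so the share is near the background. Without overlap between the arrays of the 2 pairs were Tead4 and Ascl2, 2 of the 8 genes with all 9 values, against 14.4% of all probes. For Ascl2 this is not certain. Its 0 values in the p14 pair may cover small ratios on either side of 0, and the p12 pair reached up to -0.38.

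**Figure D3:**
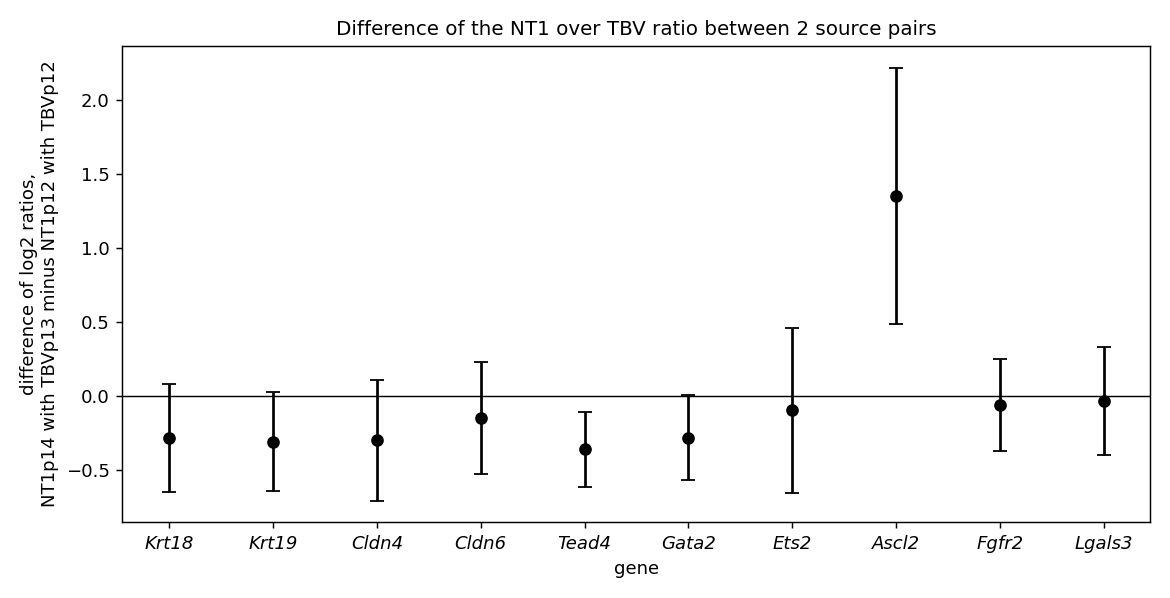
Difference of the log2 ratio of NT1 over TBV, the p14 pair minus the p12 pair (vertical axis), for the 10 genes. Points are estimates of limma on 13 arrays and bars are 95% intervals over repeat arrays. The Tead4 interval lies below 0 and that of Ascl2 above 0, and the others include 0.

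The keratins and Cldn4 did not pass, with differences of -0.29 for Krt18 (SE 0.17), -0.31 for Krt19 (SE 0.15) and -0.30 for Cldn4 (SE 0.19). Gata2 stood at -0.28 (SE 0.13, limma, adjusted p = 0.13). The differences of Tead4 and Ascl2 kept their direction in all 16 alternative settings. That of Tead4 was called in 5 and that of Ascl2 in 10. The Tead4 call was lost without array 2, 3 or 5 of the p14 pair or array 1, 2 or 4 of the p12 pair. The Ascl2 call was lost without array 5 of the p14 pair or array 1, 2 or 4 of the p12 pair. Without array 4 of the p12 pair the Tead4 difference was -0.33 (limma, adjusted p = 0.14). Without arrays 4 and 5 of the p14 pair, the Ascl2 difference was 0.76 (limma, adjusted p = 0.037) and that of Tead4 was -0.37 and not called (limma, adjusted p = 0.079). On the 9 arrays of both pairs alone neither was called (limma, adjusted p = 0.070 for Tead4 and 0.081 for Ascl2). The Tead4 call was also lost without the dye term (limma, adjusted p = 0.073) and on scaled arrays (limma, adjusted p = 0.079). Without array 1, 2 or 4 of the p12 pair, 0 of all probes passed, against 3534 with all arrays. The same pairs correlate below 0 over all probes, and with the signs of the p14 pair turned the differences were -0.077 for Tead4 and 0.16 for Ascl2, neither called.

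Within a single pair, the same fit compared each ratio with 0. Its p-values measure the spread of repeat arrays and not that between RNA preparations. In the p14 pair, 0 of the 10 genes were called, against 13.1% of all probes, and Krt18 stood at 0.36 (SE 0.11, limma, adjusted p = 0.054). In the p12 pair, 0 of the 10 were called, against 0.362% of all probes, and Krt18 stood at 0.64 (SE 0.12, limma, adjusted p = 0.059).

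For several of the genes the dye component was at least as large as the mean ratio of NT1 over TBV. Averaged as Cy5 over Cy3, Ets2 had a dye component of 0.30 ± 0.075 (SD, n = 3) and Cldn4 one of 0.27 ± 0.083. Krt19 and Gata2 had 0.19 each and Cldn6 0.18, all higher in Cy5. Krt18 had 0.053, Fgfr2 0.037, Tead4 0.031, Ascl2 0.028 and Lgals3 0.020. None of the 10 passed as a dye effect, against 0% of all probes (limma, smallest adjusted p of the 10 = 0.14). At an unadjusted p under 0.05 were 3868 of the 15973 probes. Among them were Ets2, Cldn4, Krt19, Gata2 and Cldn6 (limma, unadjusted p from 0.0066 for Ets2 to 0.040 for Cldn6). Read as NT1 over TBV, Ets2 stood at 0.26 with NT1 in Cy5 and at -0.34 with TBV in Cy5. Gata2 went from 0.14 to -0.23, Cldn4 from 0.60 to 0.062 and Krt19 from 0.40 to 0.024. Krt18 held its side with the smallest shift of the 3 genes above 0 in all pairs, from 0.43 to 0.32.

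**Figure D4:**
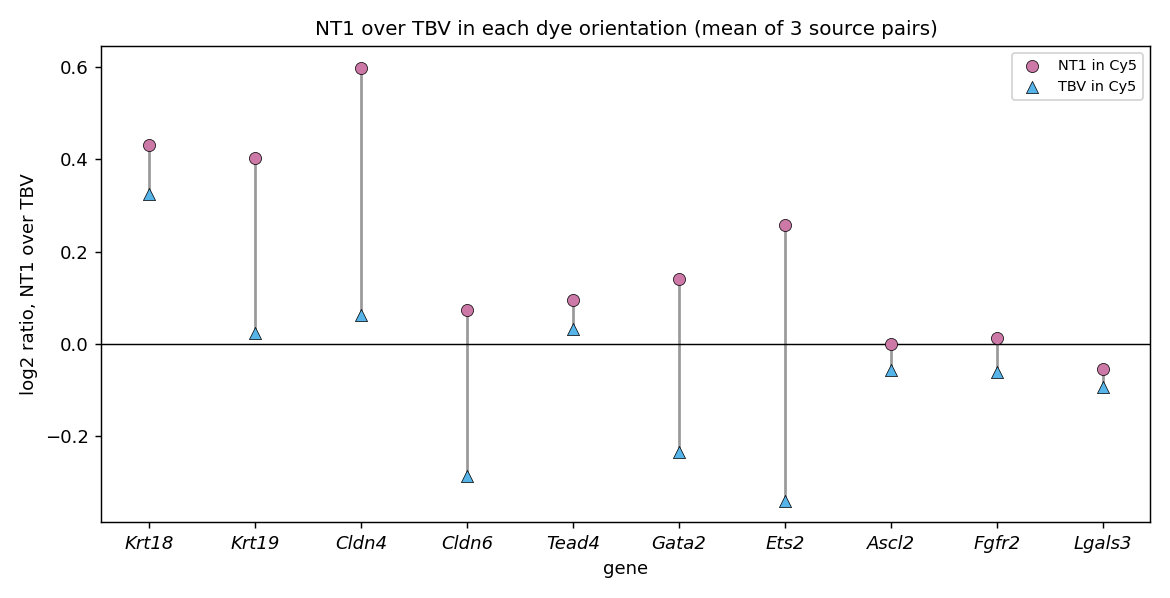
Mean log2 ratio of NT1 over TBV (vertical axis) for the 10 genes with NT1 in Cy5 (circles) and with TBV in Cy5 (triangles), each over the 3 independent source pairs. The longest lines are those of Ets2, from 0.26 to -0.34, and Cldn4, from 0.60 to 0.062. Krt18 stays at 0.43 and 0.32.

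The genes most like each other over the 13 arrays were found by Pearson r, as a description of arrays that share RNA and dye. Cldn4 was closest to Gata2 (r = 0.73) and Krt19 (r = 0.73), and these fell to 0.54 and 0.53 with the dye term removed. Tead4 was closest to Cldn4 (r = 0.58) and Gata2 (r = 0.53), which rose to 0.76 and 0.75 without the dye. Ets2 was closest to Krt19 (r = 0.52), and this fell to 0.15. Fgfr2 was closest to Cldn4 (r = 0.23), and Ascl2 reached no more than r = -0.016 with any of the others. Over the whole table, Krt18 was closest to Arhgef18 (r = 0.89), Zhx3 (r = 0.86) and Rap1a (r = 0.77). Krt19 was closest to Pcnx (r = 0.89), H2-Eb1 (r = 0.89) and Serpina12 (r = 0.87). With the dye term removed these were 0.88, 0.86 and 0.76 for Krt18, and 0.86, 0.78 and 0.76 for Krt19. They were picked as the highest r among 6474 probes of 1 gene.

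Other genes of the same pathways were read from lists. Here and for the cell type markers below, a gene counts as measured if it had a value in all 3 independent pairs. Genes with values in fewer pairs were left out. For every list, the background over all probes tested was 9.05% above 0 in all 3 independent pairs and 5.33% below. Since 0 of 15973 probes passed, that 0 passed in a list says nothing particular to it. Of 28 listed genes of the FGF and ERK pathway 10 were measured and 0 passed, with a median of -0.021. Of these, 1 was above 0 in all 3 independent pairs and 1 below. The one below was Fgf4, the ligand of Fgfr2 made by the inner cell mass. Fgf4 stood at -0.48 ± 0.17 (SD, n = 3) with pair values of -0.57, -0.60 and -0.28, and at -0.61 in the check pair (limma, adjusted p = 1.00). It was below 0 on 13 of 13 arrays, so that Krt18 and Fgf4 were both among the 13 probes with 1 sign on every array, on opposite sides. A probe with a ratio of 0 on any array could not be among these 13. Fgfr2 itself stood near 0.

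Of 34 listed tight and adherens junction genes 7 were measured and 0 passed, with a median of -0.028 and means from -0.15 to 0.31. Above 0 in all 3 independent pairs were 2, Tjp3 and Prkci, and 0 were below. Tjp3 stood at -0.19 in the check pair. Prkci, the atypical protein kinase C of apical polarity, stood at 0.31 ± 0.24 (SD, n = 3) with 0.51, 0.046 and 0.36. Of 13 genes of blastocoel transport 6 were measured and 0 passed, with a median of -0.010 and means from -0.18 to 0.30. Above 0 in all 3 independent pairs were Atp1b1 and Aqp8, and below was Ezr, at -0.076 ± 0.083 (SD, n = 3). Aqp8 and Ezr were named after their values were seen. Atp1b1, the beta subunit of the sodium pump that fills the cavity, stood at 0.30 ± 0.29 (SD, n = 3). Of 27 trophoblast products 5 were measured and 0 passed, with a median of -0.040 and means from -0.17 to 0.31. The only one above 0 in all 3 independent pairs was Peg3, an imprinted zinc finger gene, at 0.31 ± 0.084 (SD, n = 3) with 0.29, 0.25 and 0.41, and at -0.045 in the check pair.

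Of 21 genes of the Hippo pathway and its TEAD cofactors 10 were measured and 0 passed. Their median was 0.30 in the p14 pair, -0.13 in the p12 pair and -0.0057 in the TBV2 pair, where Tead4 had -0.15, 0.22 and 0.12. The single gene of this list above 0 in all 3 independent pairs was Vgll4, at -0.50 in the check pair. Like Tjp3, it was named after its values were seen. Of 26 trophoblast regulators 5 were measured, none above or below 0 in all 3 independent pairs, with means from -0.081 to 0.11. Of 20 other ETS and GATA family genes 7 were measured, and of 9 galectins 4. Of 9 keratins and plakins 2 were measured. None of these passed. The median of all measured genes of these 4 lists lay between -0.027 and 0.051.

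Markers of other cell types were read beside these values. Pluripotency markers (13 of 18 measured) had medians of -0.062, -0.55 and -0.16 in the p14 pair, the p12 pair and the TBV2 pair. Of these markers, 6 were below 0 in all 3 pairs, against 5.33% of all probes tested. They include Fgf4, given above. In the TBV2 pair Zfp42 and Esrrb were near 0, at -0.0095 and -0.023. Pou5f1 was below 0 on 8 of its 13 arrays and above 0 on 0. Zfp42, Esrrb and Pou5f1 were named after their values were seen. Extraembryonic endoderm, which also makes simple-epithelial keratins, had medians of 0.16, 0.00091 and -0.070 over 12 of 20 measured markers. Fibroblast markers (13 of 18 measured) had medians of 0.46, -0.36 and -0.26. Krt18 stood at 0.37, 0.64 and 0.12 in the same pairs. The part of these cell types in the keratin and claudin ratios was not tested, and with ratios alone no marker can be called absent.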

How the data were processed

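Total RNA of NT1 and TBV sources was hybridised to 13 two-colour arrays, and the deposited table holds 1 value per probe and array for 20205 probes. Its values, as the authors deposited them, were read as log2 ratios between the dyes. The log base, the numerator and the normalisation within arrays are not given in the sources used here. Many values are whole numbers, read as having lost their decimals, from 3.00% of values in the TBV2 pair to 40.4% in the check pair.

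Each array was centred on its median, and arrays with TBV in Cy5 were multiplied by -1. Each pair value is the mean of both orientations. In R 4.3.3, limma 3.58.1 (lmFit, eBayes) tested the 3 independent pairs against 0 over the 15973 probes with a value in each. Calls had a Benjamini-Hochberg adjusted p under 0.05. The dye component and the pair difference were fitted the same way, the latter on 13 arrays. The p-values measure the spread among these preparations, or among repeat arrays for the pair difference and the single pairs. The fits were tested on simulated data. The number of arrays limits the precision.

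Probes were named through the platform annotation (11723 with 1 symbol, 806 with several, 7676 with none), and the symbols of all 10 genes were current in the RefSeq table by Entrez ID. The 10 genes and the gene lists were chosen with earlier results of these data known. Besides the 10 genes, the rule named Krt8, Fgf4 and list genes with the same sign in all 3 pairs and a mean size of at least 0.3. It also gave the genes most alike by r. Figures used matplotlib 3.10.9 in Python 3.11.15. Other settings changed what counts as a replicate, the centring and scaling, the orientations used, the sign of a pair, the handling of 0 and missing values, and the arrays or pairs kept.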

Additional observations from a re-analysis of the deposited data

Results flagged for a closer look

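The NT1 over TBV ratio of Tead4 differed between the p14 pair and the p12 pair by -0.36 (limma on arrays, adjusted p = 0.047), and that of Ascl2 by 1.35 (limma on arrays, adjusted p = 0.037). They are listed because the difference between the pairs itself passed the test, which 21% of all 16837 probes did, so 2 of 10 genes is near the background. The calls held in 5 (Tead4) and 10 (Ascl2) of 16 alternative settings. Arrays here repeat 1 pair of RNA sources each, and 8 of 13 Ascl2 values are whole numbers. Among 18 groups of 4 or 5 arrays of the 10 genes, no array lay far from the others by Dixon's criterion.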

How the results depend on the processing

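The restriction of the p14 pair to arrays 1 to 3, its turned sign in the pair difference, the single pairs against 0 and the r without dye were chosen after seeing the data. For NT1 over TBV, the count of 0 probes held in the settings on source pairs and with each array left out (0 to 0). It was 2 with 13 arrays and the pair as a random block and 12 with 13 independent arrays. The dye count of 0 became 182 with 13 independent arrays.

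The 3534 probes of the pair difference became 2184 without a dye term, 2139 with scaled arrays, 830 on the 9 arrays of both pairs, 1058 on arrays 1 to 3 of the p14 pair and 26 with that pair turned. With single arrays left out they ranged from 0 (the p12 pair without array 1, 2 or 4) to 4768, with 1381 without array 5 of the p14 pair. The cause was not tested.

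None of the 10 genes was called for NT1 over TBV in any setting. Cldn4 kept its direction in all 27 and Krt18 and Krt19 in 26 each. Other means changed sign. With the p14 pair turned, Cldn6 was 0.075, Gata2 0.12 and Ets2 0.037. With the p12 pair turned, Krt18 was -0.049, Krt19 -0.082, Tead4 -0.082 and Ascl2 0.48. With the TBV2 pair turned, Tead4 was -0.019, Fgfr2 0.069 and Lgals3 0.047. With NT1 in Cy5 only, Cldn6 was 0.073, Gata2 0.14, Ets2 0.26, Ascl2 0.00048 and Fgfr2 0.013. With 4 pairs, Fgfr2 was 0.0096 and Lgals3 0.041. With the random block Fgfr2 was 0.018, and on independent arrays Ascl2 was 0.0067, Fgfr2 0.022 and Lgals3 0.023. Ascl2 was 0.28 with values of 0 as missing and 0.34 without the p12 pair, where Tead4 was -0.013. Gata2 was 0.058 without the p14 pair, and Fgfr2 was 0.034 without the TBV2 pair and 0.0068 on arrays 1 to 3 of the p14 pair. With single arrays left out, Ets2 ranged from -0.16 to 0.080, Ascl2 from -0.14 to 0.056 and Fgfr2 from -0.067 to 0.018.

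In the pair difference, turning the p14 pair gave Cldn6 0.35, Gata2 0.21, Ets2 0.16 and Lgals3 0.051, and arrays 1 to 3 gave Fgfr2 0.031. With single arrays left out, Ets2 ranged from -0.27 to 0.044, Fgfr2 from -0.13 to 0.023 and Lgals3 from -0.080 to 0.027.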
